A study of Homo sapiens with 44 samples.

Results

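The expression of 10 genes of the actin thin filament was followed through the conversion of H1 cells, an established human embryonic stem cell line, into cardiac cultures. They were chosen by symbol and matched to gene identifiers through GENCODE 29, which gave 10 of the 60499 genes listed in the count table. They comprise the cardiac muscle actin ACTC1, the skeletal muscle actin ACTA1, the cytoplasmic actins ACTB and ACTG1, the tropomyosins TPM1, TPM2, TPM3 and TPM4, and the pointed-end proteins TMOD1 and LMOD2. All 10 passed the filter on low counts. The cells grew in wells coated with the laminins LN-521 and LN-221. Total RNA from 44 wells in 12 groups was sequenced in bulk. The pluripotent group was kept on LN-521, and day 0 was the confluent culture at which CHIR99021, an inhibitor of the kinase GSK3, was added. IWP2, an inhibitor of Wnt secretion, was added at day 3. Insulin-free supplement was used through day 9 and the complete supplement from day 11. There were 3 wells in each of the pluripotent, day 0, day 1, day 3, day 14, day 20, day 30 and day 90 groups and 5 wells at each of day 5, day 7, day 9 and day 11. All wells came from 1 cell line, so the spread between wells does not cover differences between lines, and the labels do not say whether wells of a group came from separate differentiations. The p-values therefore measure only the spread between these wells, which may be technical.

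In a sarcomere, actin monomers assemble into thin filaments, tropomyosin coils along them and gates their contact with myosin, and tropomodulin and leiomodin act at the slow-growing pointed end. Tropomodulin caps that end, whereas leiomodin nucleates filaments and lengthens them. Heart muscle is known to use both the cardiac and the skeletal alpha actin, while nearly every cell type carries the cytoplasmic beta and gamma actins. Each tropomyosin gene yields several proteins through alternative promoters and exons.

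In hg38, ACTC1 (ENSG00000159251) lies at chr15:34788095-34795726, ACTA1 (ENSG00000143632) at chr1:229431245-229434098, ACTB (ENSG00000075624) at chr7:5527147-5563784 and ACTG1 (ENSG00000184009) at chr17:81509971-81523847, all on the minus strand. TPM1 (ENSG00000140416) at chr15:63042632-63071915 and TPM4 (ENSG00000167460) at chr19:16067021-16103005 are on the plus strand, and TPM2 (ENSG00000198467) at chr9:35681992-35690121 and TPM3 (ENSG00000143549) at chr1:154155304-154194648 on the minus strand. TMOD1 (ENSG00000136842) at chr9:97501180-97601748 and LMOD2 (ENSG00000170807) at chr7:123655807-123664290 are on the plus strand. The 4 actin genes thus sit on 4 different chromosomes, and so do the 4 tropomyosin genes.

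Totals ranged from 6937136 to 33498022 estimated counts per library, and a floor of 3 counts corresponds to 0.0896 to 0.432 CPM, the count scaled to a common library size. RNA integrity numbers ran from 7.4 to 10.0, and the 8 libraries under 8.5 lay at day 5 and from day 11 on. The summed TPM (a transcript abundance corrected for length, unrelated to the gene symbols TPM1 to TPM4) of 7 cardiomyocyte markers lay between 15.5 and 22.7 at day 0, between 1419 and 7051 at day 9, and between 4901 and 10648 at day 90. Other cell types were present: 6 endoderm and liver markers summed to 143 to 1760 TPM at day 9 and 2.24 to 35.2 at day 90, and 5 fibroblast markers to 147 to 417 and 189 to 879. Their part in the results was not tested. In bulk RNA, fewer cells of a type and less RNA per cell cannot be told apart.

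Promoter sequence was available in RefSeq (GRCh38.p14) for 9 of the 10 genes. ACTB had no entry. The 250 bases before each annotated start were searched on both strands for the CArG box, the binding motif of serum response factor (CC, then any 6 of A or T, then GG). The 9 genes have 16 such windows, of which 4, in 4 different genes, held one, against 1.16% of the 35116 windows of the same length over all genes. These 4 boxes, picked after the search, are shown because they lie in 2 muscle actins, a cytoplasmic actin and a non-muscle tropomyosin. Capitals mark the box, within 30 bases of the gene's strand.
ACTC1, chr15:34795639-34795668, minus strand: gcgaaggggaCCAAATAAGGcaaggtggca
ACTA1, chr1:229434172-229434201, minus strand: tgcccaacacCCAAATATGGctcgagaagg
ACTG1, chr17:81512874-81512903, minus strand: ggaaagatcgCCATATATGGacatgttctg
TPM4, chr19:16067355-16067384, plus strand: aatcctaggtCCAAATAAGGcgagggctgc
The box began 109 bases before the start in ACTC1, 97 in ACTA1, 94 in ACTG1 and 173 in TPM4. ACTC1 and TPM4 held the same 10 letters. In GENCODE 29, which has other transcript starts, 30 of the 30 printed ACTC1 bases and 18 of the ACTG1 bases lie in an exon. The ACTA1 window is given whole because it also holds TATAAA and CATTCC, the latter once on each strand. Capitals in it mark all of these motifs.
ACTA1, chr1:229434095-229434344, minus strand: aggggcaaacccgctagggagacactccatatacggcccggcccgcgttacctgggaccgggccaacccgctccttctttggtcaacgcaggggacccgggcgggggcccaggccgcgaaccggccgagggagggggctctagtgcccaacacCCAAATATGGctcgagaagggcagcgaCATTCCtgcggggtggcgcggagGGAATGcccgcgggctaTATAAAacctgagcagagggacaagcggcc
TATAAA occurred in 3 of the 16 windows (ACTC1, ACTA1 and TMOD1) against 10.7% of all windows. CATTCC occurred in 2 of the 16 (ACTC1 and ACTA1) against 11.9%, a share near the background, and the MEF2 motif in 0 of the 16 against 2.8%. A match describes these letters and is no evidence of binding.

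ACTC1 was low until day 3 and ACTA1 until day 5. ACTC1, the main actin of the heart's sarcomeres, measured 27.7, 32.9 and 25.7 CPM (scaled further by TMM) in the 3 day 0 wells. By day 5 the range was 157 to 413 (median 281). At day 7 it had reached 1620 to 3405 (median 2220), and the 5 wells of day 9 spanned 1282 to 5028 (median 2550). Every day 9 well therefore lay above every day 0 well. The log2 fold change between them was 6.58 ± 0.63 (standard error), with an adjusted p of 5.69e-11 in edgeR's quasi-likelihood test with Benjamini-Hochberg adjustment over 22955 genes. All fold changes and adjusted p-values below come from that fit unless another test is named, and a gene is called at an adjusted p under 0.05 with an absolute log2 fold change of at least 1. The rise came in 2 steps, 3.53 ± 0.54 from day 3 to day 5 (adjusted p = 6.08e-06) and 3.07 ± 0.42 from day 5 to day 7 (adjusted p = 1.89e-06).

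After day 7 no neighbouring step of ACTC1 was called. Its group means ordered day 14 (2070 CPM), day 7 (2330), day 9 (2758), day 11 (3482), day 20 (4150), day 30 (4566) and day 90 (5257), and the ranges of all neighbours in that order overlapped. By TPM the order differed, with means of 1240 ± 361 (SD) at day 20, 1471 ± 1002 at day 30 and 854 ± 344 at day 90. On log2(TPM + 1) the median change over all genes from day 30 to day 90 was -0.65. The 5 day 11 wells split: replicates 1 and 2 measured 1475 and 930 CPM, and replicates 5, 6 and 7 measured 5054, 4889 and 5064. The low pair had RNA integrity numbers of 8.6 and 8.0 against 9.2 to 9.5. Their endoderm and liver markers summed to 2195 and 4090 TPM against 46.5 to 55.0 in the other 3, and the part of either in the split was not tested. The log2 fold change from day 9 to day 90, 0.93 ± 0.44, was not called (adjusted p = 0.0947). Without day 9 replicate 10 it was 1.26 and was called (adjusted p = 0.0252).

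Early and late libraries shared lanes. In the 12 libraries from the pluripotent group to day 3, ACTC1 stood at a median of 0.938% of the mean of later libraries on the same lane, TMOD1 at 1.10%, LMOD2 at 0.496% and the cardiac troponin TNNT2 at 0.537%. ACTA1, at 8.79%, and the other 6 genes, at 10.6% or more, stood higher. Whether reads assigned to the wrong library contribute was not tested.

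ACTA1, the actin of adult skeletal muscle that heart also makes, took a different course. It measured 9.23, 11.5 and 11.7 CPM at day 0. Its range was 3.09 to 3.50 at day 3 and 1.67 to 5.58 at day 5 (median 3.17). At day 7 it ranged from 47.3 to 108 CPM (median 60.0), above every day 5 well, a log2 fold change of 4.23 ± 0.58 (adjusted p = 1.69e-06). Day 9 against day 0 gave 2.93 ± 0.66 (adjusted p = 3.45e-04). At day 30 the wells measured 1329, 337 and 51.1 CPM, and at day 90 they measured 62.8, 27.1 and 53.1. The lowest day 30 well lay within the day 90 range.

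From day 30 to day 90 ACTA1 fell by 3.58 ± 0.71 on the log2 scale (adjusted p = 0.00102). Without day 30 replicate 1, the highest well, it fell by 2.00 (adjusted p = 0.0453), and in a fit of those 2 groups alone the call was lost (adjusted p = 0.292). The 4 smooth muscle markers (MYH11, CNN1, TAGLN and SMTN) summed to 293 to 1546 TPM at day 30 and 121 to 169 at day 90. At day 30 these markers summed to 740 TPM in the highest ACTA1 well (replicate 1), 1546 in replicate 3 and 293 in the lowest ACTA1 well (replicate 10). The 6 skeletal muscle markers summed to 92.3 to 139 TPM at day 30 and 102 to 233 at day 90, against 0.28 to 0.43 at day 0. Nearly all of that was CKM, the muscle creatine kinase that heart also makes, at 92.2 to 138 and 101 to 232 TPM. Of the other 5, MYF5 was at 0 in all wells of both days, MYOD1 reached at most 0.06 TPM, MYF6 0.05, MYOG 0.41 and TNNI2 0.50. The part of other cell types in the fall was not tested.

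**Figure D1:**
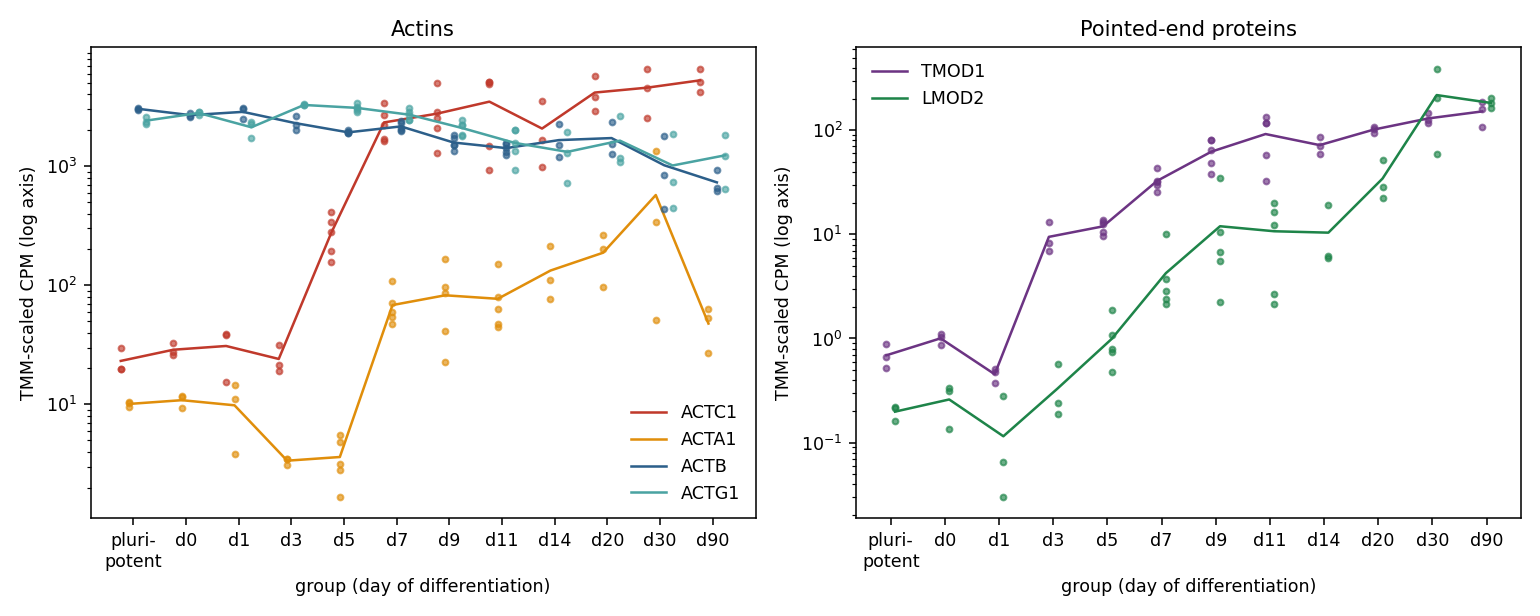
TMM-scaled CPM on a log axis (y) in each of the 44 libraries (points) and the group means (lines) for the 4 actins and the 2 pointed-end genes, by group (x). ACTC1 passes from 24.1 CPM at day 3 to 2330 at day 7, and the 1 LMOD2 value of 0, at day 1, is drawn at 0.03.

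The cytoplasmic actins were abundant from the start and differed less between days. ACTB, the beta actin of the cell cortex, measured 2652, 2811 and 2586 CPM at day 0 and 1331 to 1822 at day 9 (median 1520). The 2 groups did not overlap, and the log2 fold change of ACTB was -0.76 ± 0.23 (adjusted p = 0.00682), under the fold threshold. With limma on log2(TPM + 1) it was called, at -1.12, where the median over all genes was -0.30. At day 90 it measured 928, 653 and 613 CPM, below every day 9 well, and was called lower (log2 fold change -1.11 ± 0.25, adjusted p = 4.27e-04). ACTG1, the gamma actin, ranged from 1790 to 2431 CPM at day 9 (median 2199) against 2688 to 2873 at day 0, a log2 fold change of -0.42 ± 0.31 (adjusted p = 0.281). At day 90 its wells measured 1842, 641 and 1221 CPM, and its log2 fold change from day 9, -0.76 ± 0.33, missed the threshold (adjusted p = 0.0628). Without day 90 replicate 2 it was -1.18 and was called (adjusted p = 0.0142). It was also called with limma (-1.42), where the median over all genes was -0.49.

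On the per-length TPM scale, the share of the 4 actins held by ACTC1 and ACTA1 went from 0.697% ± 0.077 (SD, n = 3) at day 0 to 4.34% ± 1.44 (n = 5) at day 5, 28.3% ± 6.00 (n = 5) at day 7 and 37.7% ± 11.7 (n = 5) at day 9. It was 69.9% ± 8.49 (n = 3) at day 30 and 68.8% ± 9.55 (n = 3) at day 90. Within that muscle share, ACTA1 made up 3.84% ± 1.41 at day 9, 16.8% ± 21.9 at day 30 and 1.37% ± 0.667 at day 90. At day 30 the 3 wells were at 41.9%, 6.78% and 1.65%, so the mean there describes no single well.

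Ratios of 2 genes within a library do not depend on the scaling between libraries. Each was taken as a log2 ratio of TPM after adding 0.1, and 6 differences between groups were tested by exact two-sided permutation over 56 splits, for which the smallest possible p is 0.0179. The pairs were chosen with earlier results of these data known. The adjustment over 6 does not cover that choice, so these p-values are no independent support for the changes of the single genes. Leaving out a well lowers the number of splits and raises that smallest p. A larger exact p without a well therefore need not mean that the result rests on that well. ACTC1 over ACTB averaged -6.74 ± 0.25 (SD, n = 3) at day 0, 0.42 ± 0.71 (n = 5) at day 9 and 2.57 ± 0.36 (n = 3) at day 90. Both differences, 7.15 and 2.15, separated the groups completely (exact p = 0.0179, adjusted 0.0214 over the 6). The second was 1.96 without day 90 replicate 4 (adjusted exact p = 0.0571, from fewer splits), and the remaining day 90 wells still lay above every day 9 well. ACTA1 over ACTC1 averaged -4.72 ± 0.58 at day 9 and -6.32 ± 0.90 at day 90, a difference of -1.60 (exact p = 0.0357, adjusted 0.0357). Every day 90 well (-5.83, -7.36 and -5.76) was below every day 9 well, the lowest of which was -5.39, yet the two-sided test counts a second split as extreme. Without day 90 replicate 4 the difference was -1.08 (adjusted exact p = 0.0952), and without day 9 replicate 2 it was -1.74 (adjusted exact p = 0.0571).

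**Figure D2:**
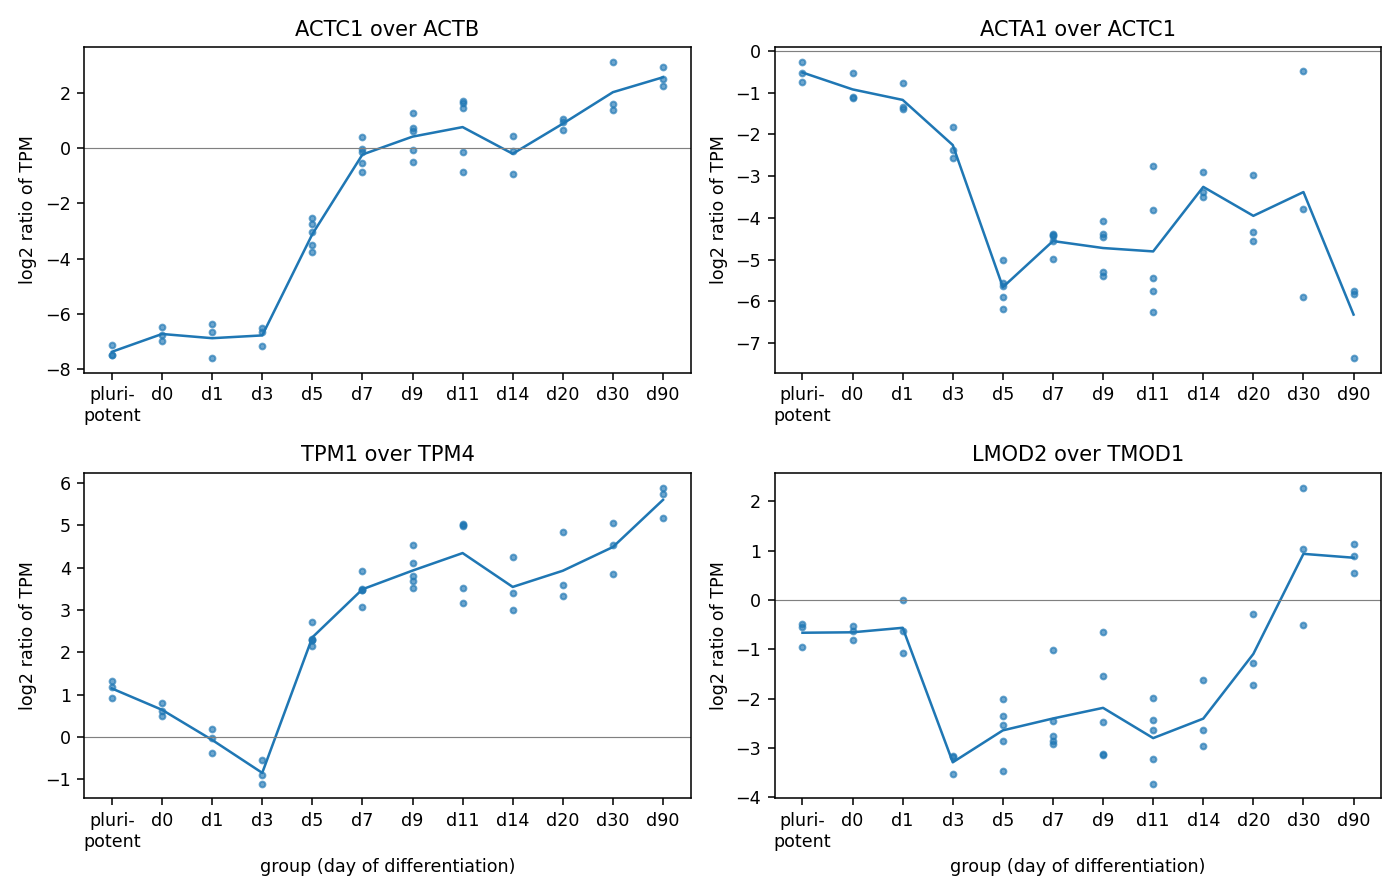
Log2 ratio of TPM (y) for 4 gene pairs in each library (points) with group means (lines), by group (x). ACTC1 over ACTB crosses 0 between day 7 and day 9, where the means are -0.23 and 0.42, and LMOD2 over TMOD1 is above 0 in all 3 day 90 wells.

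Among the tropomyosins, TPM1, which supplies the alpha-tropomyosin of heart muscle, became the dominant gene. It measured 289, 292 and 286 CPM at day 0 and 203, 136 and 137 at day 3. The wells of day 5 then spanned 1035 to 1260 (median 1050), those of day 7 spanned 1859 to 2946 (median 2138) and those of day 9 spanned 1804 to 4089 (median 2295). Day 5 lay above day 3, and day 7 above day 5, without overlap. The step to day 5 was 2.80 ± 0.28 (adjusted p = 1.79e-09) and the step to day 7 was 1.08 ± 0.22 (adjusted p = 8.87e-04). Without day 7 replicate 10 the latter was 0.98, under the fold threshold.

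At day 90 TPM1 measured 5017, 5698 and 5291 CPM, above every day 9 well, with a log2 fold change of 1.04 ± 0.24 (adjusted p = 7.05e-04). That value sat close to the fold threshold. It was 0.97 with a lane term and 0.73 with limma on log2(TPM + 1), where the median over all genes was -0.49. It was 0.93 to just under 1 without day 9 replicate 2, day 9 replicate 3, day 9 replicate 4 or day 90 replicate 4. None of these was called.

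TPM2, the beta-tropomyosin of slow skeletal muscle, measured 95.7, 103 and 104 CPM at day 0 and 229 to 380 at day 9 (median 276). It rose by 1.53 ± 0.20 (adjusted p = 8.26e-08). Its wells measured 509, 379 and 475 CPM at day 20, 712, 384 and 306 at day 30, and 309, 322 and 200 at day 90. From day 30 to day 90 the log2 fold change was -0.75 ± 0.22 (adjusted p = 0.0229), under the fold threshold, and from day 9 to day 90 it was -0.07 ± 0.19 (adjusted p = 0.808). The sign of the latter turned under other scalings.

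TPM3, a tropomyosin of non-muscle cells and slow skeletal fibres, was the most abundant of the 4 in the pluripotent group. It measured 381, 412 and 391 CPM at day 0 and 139 to 173 at day 9 (median 163), and was called lower, with a log2 fold change of -1.31 ± 0.25 (adjusted p = 4.62e-05). At day 90 it measured 110, 44.7 and 78.6 CPM and was called lower again, at -1.03 ± 0.27 (adjusted p = 0.00219). Without day 90 replicate 4 the value was -0.75, which was not called. It also fell just short of the fold threshold without day 9 replicate 2, and with RLE scaling (-0.96), with DESeq2 (-0.96) and in the compared groups alone (-0.98). TPM4, a non-muscle tropomyosin, ranged from 304 to 434 CPM at day 9 against 285 to 333 at day 0, and the log2 fold change of 0.27 ± 0.25 was not called (adjusted p = 0.384). It then measured 244, 93.6 and 153 CPM at day 90, below every day 9 well (log2 fold change -1.18 ± 0.26, adjusted p = 3.08e-04). That was -0.89 without day 90 replicate 4 and -0.93 with limma (median over all genes -0.49), neither called. CPM is not corrected for length, and the effective transcript length of TPM4, described below, was 2026 bases at day 9 and 1142 at day 90. By TPM it averaged 87.8 ± 50.2 (SD, wells from 47.85 to 165.84) at day 9 and 41.0 ± 8.06 (32.0 to 47.58) at day 90. The part of length in the fall was not tested.

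By TPM, TPM1 made up 29.5% ± 0.573 (SD, n = 3) of the 4 tropomyosins at day 0, 17.8% ± 2.81 (n = 3) at day 3, 63.6% ± 1.61 (n = 5) at day 5, 82.2% ± 3.10 (n = 5) at day 9 and 93.9% ± 1.46 (n = 3) at day 90. TPM3 held 42.5% ± 0.567 in the pluripotent group and 0.740% ± 0.368 at day 90. TPM4 peaked at 31.8% ± 2.16 at day 3. TPM1 over TPM4, as a log2 ratio of TPM, averaged 0.64 ± 0.15 in day 0 wells, 3.93 ± 0.40 in day 9 wells and 5.60 ± 0.37 in day 90 wells. The differences of 3.29 and 1.67 left no overlap between groups (exact permutation p = 0.0179 each, adjusted 0.0214). The later one was 1.53 without day 90 replicate 4 (adjusted exact p = 0.0571, from fewer splits), and the groups still did not overlap.

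**Figure D3:**
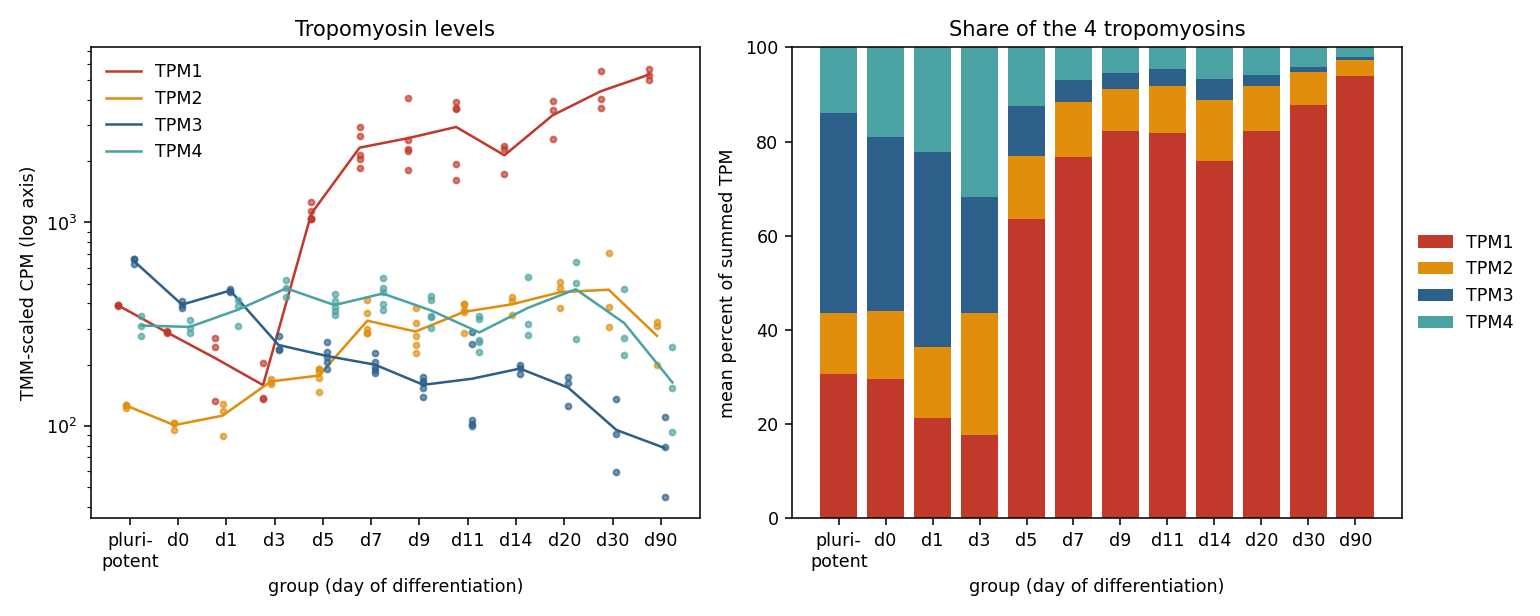
Left, TMM-scaled CPM on a log axis (y) of the 4 tropomyosin genes in each library (points) with group means (lines). Right, mean percent of their summed TPM held by each gene (y), by group (x); TPM1 grows from 17.8% at day 3 to 93.9% at day 90.

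The files also carry information on which transcripts of a gene were counted, because estimated counts divided by TPM give an abundance-weighted effective transcript length. This measure was taken up after the files had been examined, so it is given for all 10 genes as a description with no test. Genes with 1 annotated transcript set the scale in each library, and the effective length is shorter than the annotated one by a fragment-dependent offset (182 bases in the first pluripotent library). ACTA1, with 2 annotated transcripts, varied by 0.910% from its shortest to its longest value over 36 libraries. TPM1, with 34, went from 1311 ± 27.0 bases (SD, n = 3) at day 0 to 1176 ± 34.8 (n = 5) at day 5, 979 ± 37.9 (n = 5) at day 7, 904 ± 33.4 (n = 5) at day 9 and 798 ± 6.28 (n = 3) at day 90. The longest day 9 value, 950, was below the shortest day 0 value, 1285.

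TPM2 lengthened, from 933 ± 15.5 bases at day 0 through 963 ± 9.74 at day 9 to 1131 ± 20.6 at day 90. TPM4 was 2166 ± 30.3 bases at day 0, 2026 ± 66.9 at day 9 and 1142 ± 329 at day 90, where the wells spanned 778 to 1419. TPM3 differed little between these days, at 1429 ± 8.24, 1458 ± 48.3 and 1514 ± 75.0 bases. ACTC1 was at 1828 ± 157, 1863 ± 57.3 and 1883 ± 23.3 bases and ACTB at 1586 ± 15.1, 1564 ± 11.2 and 1555 ± 73.3. ACTG1 had a wide spread between wells, 955 to 1544 bases at day 14 alone, against 1604 ± 31.3 at day 0. Short ACTG1 values went with low RNA integrity in part: the day 14 wells were at 955, 1207 and 1544 bases with RNA integrity numbers of 7.4, 8.2 and 9.8. Day 20 replicate 2 (961 bases, 8.0), day 30 replicate 10 (1156 bases, 7.4) and day 5 replicate 4 (1251 bases, 8.4) were also short. The 3 day 3 wells, at 1199 to 1382 bases, had numbers of 9.6 to 10.0. Day 90 replicate 5 (8.0) and day 20 replicate 1 (8.2) also had low numbers but were at 1497 and 1453 bases. Depth was low as well in several short wells. Totals were 8679308 and 14148880 estimated counts in day 14 replicates 2 and 6, 6937136 in day 20 replicate 2 and 11715812 in day 30 replicate 10. Day 5 replicate 4 had 21139494. The part of RNA integrity or depth was not tested. TMOD1 stayed between 2980 and 3168 bases in the 32 libraries with enough counts and LMOD2 between 1884 and 2152 in 16. These lengths rest on the division of reads among transcripts in the deposited estimates, and no transcript was measured directly.

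**Figure D4:**
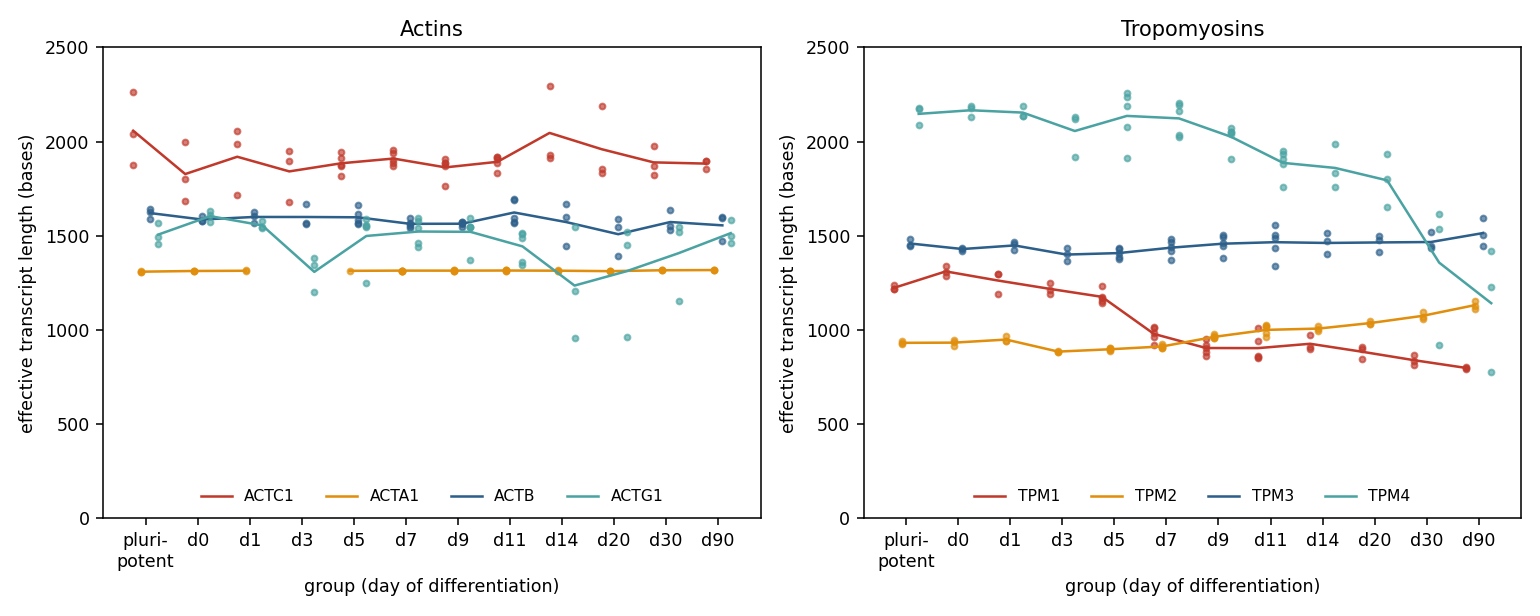
Effective transcript length in bases (y) implied by estimated counts and TPM in each library with enough counts (points) and group means (lines) for the 4 actins and the 4 tropomyosins, by group (x). TPM1 shortens from 1311 bases at day 0 to 798 at day 90, while ACTA1 stays between 1307 and 1319.

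The pointed-end genes rose at different times. TMOD1, the capping protein, measured 0.472, 0.514 and 0.374 CPM at day 1 and 6.91, 8.27 and 13.2 at day 3, with no overlap. That step, 4.37 ± 0.42 (adjusted p = 1.85e-10), came before those of the muscle actins. It rose again from day 5 (9.74 to 13.7, median 12.6) to day 7 (25.4 to 43.6, median 32.1), by 1.45 ± 0.25 (adjusted p = 1.20e-04), and reached 38.1 to 80.6 CPM at day 9 (median 64.8). At day 90 its wells measured 108, 189 and 160 CPM, above all day 9 wells (log2 fold change 1.28 ± 0.28, adjusted p = 2.67e-04). With limma on log2(TPM + 1) this call (0.70) and that from day 5 to day 7 (0.90) were lost, where the medians over all genes were -0.49 and -0.19. Day 9 against day 0 gave 5.95 ± 0.40 (adjusted p = 7.05e-15), from 26 to 32 counts per well at day 0. TMOD1 overlaps TSTD2 on the opposite strand, whose counts were a median of 45.1% of those of TMOD1 in libraries with at least 100 TMOD1 counts. The highest share in those libraries was 476%, and over all libraries 9550%, so TSTD2 exceeded TMOD1 where TMOD1 was low. The kit keeps strand, but use of strand in counting is not given in the sources used here.

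LMOD2, the cardiac leiomodin, came later. It measured 0.134, 0.333 and 0.311 CPM at day 0, or 4, 10 and 9 counts, and 2.22 to 34.7 CPM at day 9 (median 6.80). The log2 fold change of 5.50 ± 0.96 (adjusted p = 1.06e-05) rests on those low counts. Later wells measured 52.5, 28.6 and 22.2 at day 20, and 59.9, 391 and 205 at day 30. Day 30 lay above day 20 without overlap, a log2 fold change of 2.66 ± 0.75 (adjusted p = 0.0417). That call was lost without any 1 of the day 20 wells or without day 30 replicate 3, where adjusted p ranged from 0.0521 to 0.135 and the value from 1.99 to 3.17. It was also lost with a lane term (2.13, adjusted p = 0.118) and without the libraries of RNA integrity under 8.5 (3.30, adjusted p = 0.102). At day 90 the wells measured 165, 182 and 204 CPM, all above the day 9 wells (log2 fold change 3.94 ± 0.65, adjusted p = 5.54e-06). LMOD2 over TMOD1, as a log2 ratio of TPM, went from -2.19 ± 1.08 (SD, n = 5) at day 9 to 0.86 ± 0.30 (n = 3) at day 90 (difference 3.04, exact permutation p = 0.0179, adjusted 0.0214). Without day 90 replicate 4 or any 1 of day 9 replicates 1 to 4 it was 2.80 to 3.20 (adjusted exact p = 0.0571). For the day 90 well that p came from fewer splits. Without 1 of those day 9 wells, the two-sided test also counted a second split as extreme. That split placed day 9 replicate 10 with the day 90 wells. The groups did not overlap with any of these wells left out.

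The calls by step are given beside the share of all genes called. Of the 10 genes, 1 was called from day 1 to day 3 (17.8% of all genes tested, 11.0% higher), 2 from day 3 to day 5 (10.1%, 5.75% higher) and 4 from day 5 to day 7 (3.65%, 2.74% higher), all higher. These were TMOD1; ACTC1 and TPM1; and ACTC1, ACTA1, TPM1 and TMOD1. The count of 1 lay below the share of all genes in its step, and the count of 2 was not far above it. Without day 7 replicate 10 the last count was 3, and it was 5, with LMOD2 added, without day 5 replicate 4, day 7 replicate 3 or day 7 replicate 4. LMOD2 alone was called higher from day 20 to day 30 (2.02% of all genes, 0.758% higher). The only call between day 30 and day 90 was the fall of ACTA1 (5.09%, 2.44% lower). Without day 30 replicate 3 the day 20 to day 30 calls were ACTB (-1.39) and ACTG1 (-1.43) in place of LMOD2, and without day 30 replicate 10 ACTA1 (2.15) joined it. TPM4 joined ACTA1 between day 30 and day 90 without day 30 replicate 1, day 30 replicate 10 or day 90 replicate 2 (-1.07 to -1.37). In the fit of the compared groups alone both counts were 0, where 0% and 0.0117% of all genes tested were called. Limma on log2(TPM + 1) called 3 in the latter step, against 15.2% of all genes. Of all genes it called 58 higher and 2018 lower there.

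The other steps gave no call in edgeR. From the pluripotent group to day 0 (2.91% of all genes called) TPM3 alone had an unadjusted p under 0.05, and from day 0 to day 1 (13.5%) TMOD1 alone, which DESeq2 called. From day 7 to day 9 (1.28%) ACTB, TMOD1 and LMOD2 did, with TMOD1 at an adjusted p of 0.0354 and a log2 fold change of 0.93 ± 0.25. TMOD1 passed the fold threshold without day 7 replicate 1, day 9 replicate 2 or day 9 replicate 4 (1.01 to 1.07). From day 9 to day 11 (1.63%) TMOD1 alone had an unadjusted p under 0.05, from day 11 to day 14 (0.697%) 0 genes did, and from day 14 to day 20 (0.0479%) TPM1 and LMOD2 did. DESeq2 and limma on log2(TPM + 1) called 0 genes in these steps apart from the DESeq2 call at day 1.

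Over the first 9 days, 7 of the 10 genes were called, against 31.7% of all genes tested. Of these, 6 were higher (17.1% of all genes): ACTC1, ACTA1, TPM1, TPM2, TMOD1 and LMOD2. TPM3 was lower (14.6%). The median log2 fold change was 2.23, against 0.08 over all genes. The count was 7 without any single well of the 2 groups.

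From day 9 to day 90, 6 were called against 23.9% of all genes: TPM1, TMOD1 and LMOD2 higher (11.9%) and ACTB, TPM3 and TPM4 lower (12%). The median was -0.42, against -0.02 over all genes. Without day 90 replicate 4 the count was 3, and it ranged from 4 to 7 without the other wells in turn. The 2 long comparisons share the day 9 wells.

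**Figure D5:**
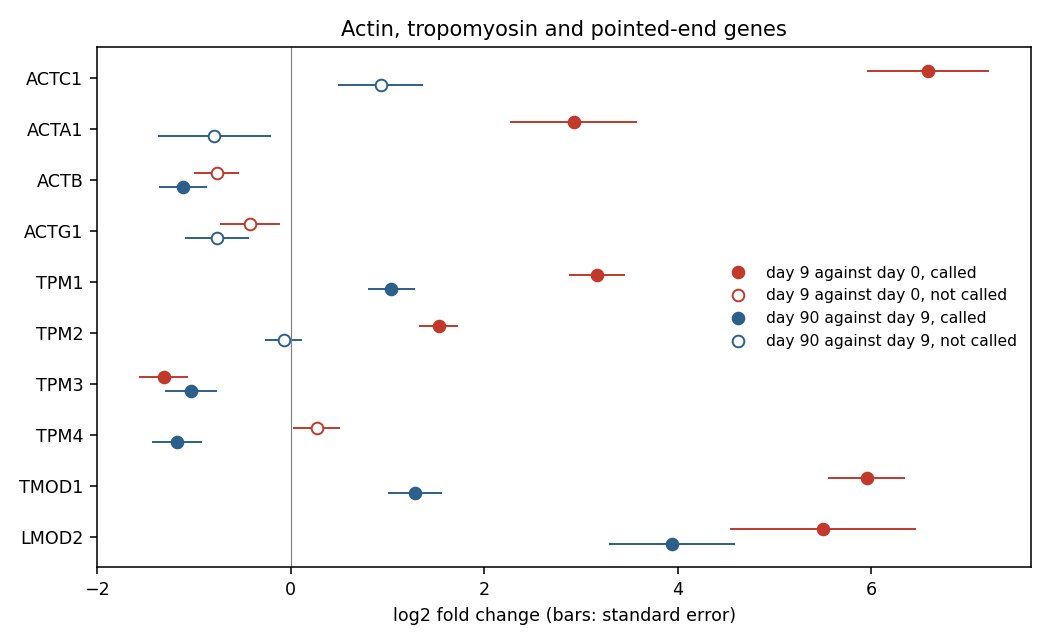
Log2 fold change (x) with its standard error (bars) for each of the 10 genes (y) in day 9 against day 0 and day 90 against day 9; filled points were called and open points were not. ACTC1, TMOD1 and LMOD2 lie above 5 in the first comparison, and LMOD2 alone lies above 3 in the second.

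Among 28 other genes of actin dynamics, 9 were called higher and 3 lower from day 0 to day 9, against 17.1% and 14.6% of all genes. The largest rises were in ACTA2, the smooth muscle alpha actin (log2 fold change 6.60 ± 0.67), MYOCD, a muscle coactivator of serum response factor (6.39 ± 0.42), the thin-filament scaffold NEBL (4.36 ± 0.31) and the leiomodin LMOD1 (4.15 ± 0.47). NEB (-1.69 ± 0.45) and the monomer-binding genes TMSB4X (-1.47 ± 0.30) and PFN1 (-1.35 ± 0.18) were lower. From day 9 to day 90, 9 were higher and 2 lower, against 11.9% and 12% of all genes. LMOD3 went from 0 to 0.157 CPM at day 9 to 16.9 to 45.9 at day 90. ACTG2 (3.89 ± 0.84), FHL2 (3.59 ± 0.49) and FHOD3, a formin of the sarcomere (2.30 ± 0.28), were also higher. TMOD2 (-1.35 ± 0.23) and MRTFB (-1.01 ± 0.22) were lower. The median log2 fold change over the 28 was 0.35 in the first comparison and 0.15 in the second.

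Among themselves, over the 44 libraries, log2 CPM of ACTC1 followed that of TPM1 (r = 0.970), TMOD1 (0.926), TPM2 (0.893) and LMOD2 (0.885) more closely than that of ACTA1 (0.780). TPM3 ran opposite to TMOD1 (-0.897) and with ACTB (0.861), and TPM4 was nearly unrelated to TPM2 (-0.00209) and to ACTA1 (-0.0543). These values describe 1 shared time course.

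The genes most like each of the 10 were taken by Pearson correlation of log2 CPM over the 44 libraries, which share the time course. ACTC1 was closest to NKX2-5 (r = 0.989), POPDC2 (0.983) and TNNT2 (0.983). TPM1 was closest to SMYD1 (0.974), TNNT2 (0.973) and ACTC1 (0.970). ACTA1 was closest to MYH11 (0.909), TAGLN (0.904) and ITGB1BP2 (0.899), the first 2 of which are smooth muscle markers. TPM2 was closest to CRIP1 (0.929), NEBL (0.919) and PTGES3L (0.914). TMOD1 was closest to MTSS1 (0.984), PGM5 (0.979) and TCEA3 (0.977), and LMOD2 to TCAP (0.973), DUSP3 (0.968) and NEK7 (0.966). ACTB was closest to EAF1 (0.943) and ZNF207 (0.927), ACTG1 to SPRED1 (0.890), H3F3B (0.885) and BTBD3 (0.873), TPM3 to ZNF100 (0.962), PPP2R1B (0.958) and CNOT9 (0.953), and TPM4 to CORO1C (0.850) and C21orf91 (0.821). By rank correlation the closest 3 genes shared at least 2 with the closest 3 by Pearson correlation for ACTA1 alone.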

How the data were processed

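Total RNA from 44 wells was sequenced as paired reads. Per the submitters' processing notes, cutadapt, STAR 2.5.2b and RSEM 1.2.31 were used with hg38; the annotation is not given in the sources used here. The deposited tables hold estimated counts and TPM per gene. Lane and RNA integrity, a score, come from the deposited sample sheet. Of the 60499 identifiers, 56769 were matched to GENCODE 29.

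Estimated counts were rounded and tested in R 4.3.3 with edgeR 4.0.16 (TMM, filterByExpr, quasi-likelihood, all libraries), over 22955 genes and 13 comparisons. DESeq2 1.42.0 and limma 3.58.1 on log2(TPM + 1), computed from the deposited TPM, were alternatives. In data simulated for day 9 against day 0, 93% of 100 genes changed 4-fold among 22955 were called. Each of these had a higher mean count than TMOD1 or LMOD2 had at day 0, so the share does not describe genes that low. Effective lengths used single-transcript genes of at least 200 counts and 800 bases. Reads of 150 bases from the 10 genes are shared with other genes for at most 0.164% of positions (TPM4). No 2 replicates agreed within sampling noise.

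The 10 genes, lists and ratios were chosen with earlier results of these data known. All 10 were named in every comparison; of the lists, the 4 largest called rises and falls were named, and the 3 genes most like each of the 10, except that for ACTB and TPM4 the third is not reported here. The effective-length measure and the RNA integrity minimum of 8.5 were chosen after seeing these files, and so was the filter on gene symbols used for likeness.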

Additional observations from a re-analysis of the deposited data

Results flagged for a closer look

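Single wells stood apart from the others of their group by Dixon's criterion in 10 of 91 group values tested, where chance gives about 1 in 20. Only the groups of 5 wells (day 5, day 7, day 9 and day 11) were large enough to be tested. Many of the values share a library or a gene, so they are not independent and that rate is only a rough guide. At day 5, replicate 5 had ACTB at 1996 CPM against 1889 to 1920 in the others and a TPM1 over TPM4 log2 ratio of 2.73 against 2.14 to 2.31. At the same day, replicate 4 had an ACTG1 effective length of 1251 bases against 1546 to 1589. Its RNA integrity number was 8.4 against 9.8 to 10.0 in the others. LMOD2 in replicate 10 stood at 10.1 CPM at day 7, against 2.12 to 3.74, and at 34.7 CPM at day 9, against 2.22 to 10.6. The LMOD2 over TMOD1 log2 ratio of replicate 10 at day 7 was -1.01, against -2.92 to -2.45. At day 7, replicate 1 had an ACTA1 over ACTC1 log2 ratio of -4.98 against -4.56 to -4.40. Replicate 3 at day 9 had effective lengths of 1764 bases for ACTC1, 1372 for ACTG1 and 1908 for TPM4, the lowest of its group in each, against at least 1869, 1546 and 2042 in the others. Its RNA integrity number of 8.9 was also the lowest of the group, the others lying at 9.3 to 10.0. No cause of these values was tested.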

How the results depend on the processing

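The number of the 10 genes called moved by over 1.5 times under these alternatives. It was 1 from day 0 to day 1 with the replicate block (14% of all genes called) and with DESeq2 (14.7%). In the compared groups alone it was also 1 (21.3%). It was 2 from day 1 to day 3 without libraries of RNA integrity under 8.5 (20.6%) and in the compared groups alone (25.8%). It was 0 from day 20 to day 30 with the replicate block (1.81%) and a lane term (1.45%). It was also 0 there without low-integrity libraries (5.44%) and in the compared groups alone (0%). Between day 30 and day 90 it was 2 without low-integrity libraries (8.67%) and 0 in the compared groups alone (0.0117%). With limma on log2(TPM + 1) it was 3 (15.2%). With each replicate left out in turn the counts ranged from 0 to 1 (day 7 to day 9), 0 to 2 (day 20 to day 30), 1 to 2 (day 30 to day 90) and 3 to 7 (day 9 to day 90). Smaller moves were 3 in the compared groups alone in place of 2 (day 3 to day 5), 3 with limma and 5 under every other alternative except RLE scaling and single replicates left out (3 to 5) in place of 4 (day 5 to day 7), 8 with limma in place of 7 (day 0 to day 9), and 5 with RLE scaling, a lane term, the compared groups alone and DESeq2 and 4 with limma in place of 6 (day 9 to day 90). Directions turned for TPM4 from day 0 to day 9, -0.0169 with limma, and for TPM2 from day 9 to day 90, which was 0.0027 with RLE scaling and DESeq2, 0.0435 with the replicate block, 0.095 without low-integrity libraries, and -0.188 to 0.0923 with replicates left out. The replicate numbers did not meet the criterion for pairing (3 or more pairs, each correlated over 0.1): in every comparison with 3 or more pairs the lowest correlation of same-numbered deviations was under 0.1, and not every well was closest to its own number (8 of 10 from day 7 to day 9, 1 of 6 from day 0 to day 9). With only 2 pairs, 4 of 4 wells were closest to their own number from day 14 to day 20 (r = 0.553 and 0.611) and from day 9 to day 90 (0.0965 and 0.155). The block moved the genes called over the whole table from 11 to 68 (day 14 to day 20) and from 160 to 0 (day 11 to day 14), with 0 of the 10 called either way. With the replicate block ACTC1 was called from day 9 to day 90 (1.09, adjusted p = 0.0267), TPM3 was not (-0.99) and LMOD2 was not from day 20 to day 30 (1.98, adjusted p = 0.0753). Ratio differences with replicates left out ranged from 6.94 to 7.38 and 1.92 to 2.37 (ACTC1 over ACTB), 3.14 to 3.39 and 1.53 to 1.88 (TPM1 over TPM4), 2.80 to 3.43 (LMOD2 over TMOD1) and -1.87 to -1.08 (ACTA1 over ACTC1), with adjusted exact p up to 0.0571, or 0.0952 for the last, where fewer splits exist. For LMOD2 over TMOD1 without day 9 replicates 1 to 4 in turn, a second split also counted as extreme.

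Over all genes, limma moved the median log2 fold change to -0.65 (day 30 to day 90), -0.49 (day 9 to day 90) and -0.30 (day 0 to day 9), so its values are relative to that. It called 1125 higher and 2270 lower from day 0 to day 9 against 3934 and 3344 in edgeR, 468 and 2264 from day 9 to day 90 against 2739 and 2746, and 2076 from day 30 to day 90 against 1168, where 730 were called with a lane term, 2015 without low-integrity libraries and 2 in the compared groups alone. From day 20 to day 30, 463 genes became 1263 without low-integrity libraries, 714 with DESeq2, 61 with limma and 0 in the compared groups alone. Limma called fewer genes than edgeR, 799 against 3102 (day 0 to day 1), 1573 against 4093 (day 1 to day 3), 970 against 2317 (day 3 to day 5) and 258 against 838 (day 5 to day 7). As shares of the genes each tested, these were 5.85% against 13.5%, 11.5% against 17.8%, 7.1% against 10.1% and 1.89% against 3.65%. The smaller counts of the other steps moved by over 1.5 times under 2 or more alternatives each. The cause of these differences was not tested. Depth limited TMOD1 and LMOD2 before day 3, at 0 to 32 counts per well.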
